A study of Mus musculus with 6 samples.

Results

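The genes described here are the cytokine-induced feedback genes of the STAT5 pathway, namely Cish, Socs1, Socs2, Socs3, Pim1 and Pim2, together with the kinase genes Jak1 and Jak3 and the transcription factor genes Stat5a and Stat5b that act above them. They were chosen by gene symbol. Of the 10 named genes, 7 had a row in the table of 10772 rows, and Socs2, Socs3 and Pim1 had none and were not analysed here. The set was proposed with the levels of these libraries in both genotypes in view, library by library, so the differences between genotypes and between sexes given for its members describe these libraries and are no test of them.

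Cytokines of the common gamma chain family, among them IL-2, IL-4, IL-7 and IL-15, bind receptors that carry the kinases JAK1 and JAK3. The active kinases phosphorylate STAT5A and STAT5B, which pair, enter the nucleus and switch on target genes. Some of those targets feed back on the signal. CIS, the product of Cish, and the SOCS proteins bind the receptors or the JAKs and restrain them, while the PIM kinases, which are active as soon as they are made, promote survival and growth. In the thymus these cytokines support developing T cells, and IL-15 and IL-7 support natural killer T (NKT) cells, T cells with a nearly invariant receptor for lipids bound to CD1d.

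RNA came from mouse thymic NKT cells of a fraction named P1, sorted as binding a PBS-57-loaded CD1d tetramer and lacking CD24, NK1.1 and CD44. The DKO group, labelled UTX/JMJD3 DKO, had 3 libraries, 1 of them male and 2 female. UTX and JMJD3, encoded by Kdm6a and Kdm6b, are histone demethylases. The WT group also had 3 libraries, 1 male and 2 female. All 6 libraries shared a mixed C57BL/6 and 129 background and were made from fresh cells. Replicates 1 and 2 were female and replicate 3 male in each group. The columns used for replicate 1 are headed only by a set number and the genotype. They were assigned to the female samples whose titles carry number 1, although another label numbers both female DKO samples 2. Values given by replicate number rest on that assignment. The sources used here do not give the driver or timing of the deletion, the age of the mice or whether animals were pooled. The labels do not say whether each library is its own animal, so the errors and p-values cover the variation among these 6 libraries, which may be technical.

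Levels are RPKM, read numbers scaled to gene length and to the size of the library, so they can be compared between genes. The reads recovered from the RPKM steps over the listed genes numbered 27266763, 5352177 and 5103423 in DKO replicates 1 to 3 and 26086434, 5732644 and 3955902 in WT replicates 1 to 3, so replicate 1 of each genotype was the deepest. Kdm6a was at RPKM 4.97, 5.28 and 3.53 in the DKO libraries, against 7.06, 4.86 and 1.94 in the WT libraries. Kdm6b was at 1.41, 0.978 and 2.59 in the DKO libraries, against 1.62, 3.12 and 3.65 in the WT libraries. The groups overlapped for both genes, and since reads from exons that remain count as well, these levels did not check the genotype labels. Eif2s3y, a Y-linked gene, was at 47.0 and 58.3 in the male DKO and WT libraries and at most at 0.0783 in the female ones, as labelled. Of 11 NKT and T cell markers, 11 had a row. Their summed level was RPKM 4610 to 5900 in the DKO libraries and 4310 to 5120 in the WT libraries. Most of that sum came from Trbc1 and Trbc2, so it does not separate NKT cells from other T cells. Zbtb16, another of the 11, was at 1.91, 0.776 and 5.35 in the DKO libraries, against 2.67, 3.06 and 3.5 in the WT libraries. Traj18, a segment of the invariant receptor, was at 167, 176 and 171 in the DKO libraries, against 115, 157 and 126 in the WT libraries. Of the 3 genes of the sort gate, Klrb1c, which encodes NK1.1, was at 0.784, 0.552 and 0.727 in the DKO libraries, against 10.8, 3.51 and 5.59 in the WT libraries, without overlap. For a row, a gene needed RPKM above 3 in at least 2 libraries. Klrb1c met this through WT libraries alone, so its gap is partly set by that filter. Cd44 was at 4.74, 0.27 and 1.48 in the DKO libraries, against 3.73, 2.33 and 0.829 in the WT libraries, and overlapped. Cd24a also overlapped, at 21.6, 0 and 5.57 in the DKO libraries, against 11.2, 5.35 and 4.50 in the WT libraries. Replicate 1 of each genotype stood apart by genes of immature and CD8 thymocytes. Of 7 listed markers of that kind 5 had a row, all but Rag1 and Rag2. The 5 summed to 430 in DKO replicate 1 and 412 in WT replicate 1. In the other 2 DKO libraries the sum was 72.1 and 32.8, and in the other 2 WT libraries 41.9 and 28.1. Cd1d1, 1 of the 5, did not stand apart in replicate 1. It was at 37.8, 57.3 and 28.3 in the DKO libraries, against 30.1, 29.3 and 21.0 in the WT libraries.

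Cish had the largest ratio of mean levels, DKO over WT, among the 7 members, at 5.79, so the stretch before its start site is shown. RefSeq's promoter table, on build GRCm38.p6, had 12 windows for 9 of the 10 named genes, each reaching from 250 bases before an annotated start to 50 bases after it. STAT5 is known to bind the palindrome TTCNNNGAA, which reads the same on both strands, so a search of 1 strand covers both. The Cish window held 2 matches, which follow each other without overlap from the annotated start on. In the printed run, chr9:107296409-107296678 on the plus strand, capitals mark the fixed letters of both matches.

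Cish: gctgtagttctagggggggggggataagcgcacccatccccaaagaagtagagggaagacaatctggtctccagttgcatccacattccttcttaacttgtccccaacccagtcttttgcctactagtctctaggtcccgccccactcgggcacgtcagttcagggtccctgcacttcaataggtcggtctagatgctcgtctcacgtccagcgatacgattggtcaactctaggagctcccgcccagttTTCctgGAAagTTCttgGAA

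The first match begins at the first base of the annotated transcript and the second at base 12, and their letters can be set side by side.

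Cish match 1: TTCctgGAA

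Cish match 2: TTCttgGAA

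Among the members' windows, the Socs3 window held 1 match, TTCttaGAA, that begins at position -154 from its start, on the minus strand of chromosome 11. The windows of Socs1, Pim1, Pim2, Jak1, Jak3, Stat5a and Stat5b held none, so 2 of 12 windows had a match. Of all 32851 RefSeq windows, 2726 held at least 1 match, or 8.3%, and 150 held at least 2, or 0.457%. A match of letters describes the sequence and does not show that a factor binds there.

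Jak1 was the most abundant member in both genotypes, and Socs1 and Stat5a were the least abundant. In the DKO libraries the order of mean levels was Jak1 at RPKM 89.4, Cish at 40.6, Stat5b at 34.6, Jak3 at 18.0, Pim2 at 17.3, Socs1 at 6.69 and Stat5a at 6.67. In the WT libraries it was Jak1 at 71.5, Stat5b at 29.6, Pim2 at 13.4, Jak3 at 12.6, Cish at 7.01, Stat5a at 2.77 and Socs1 at 2.21. Neighbours in the DKO order whose ranges over 3 libraries overlapped were Cish and Stat5b, Jak3 and Pim2, Pim2 and Socs1, and Socs1 and Stat5a. In the WT order the ranges of Pim2 and Jak3 and those of Stat5a and Socs1 overlapped. By mean level Cish stood above 77.0% of genes in the DKO libraries and above 29.1% in the WT libraries, the widest shift in rank among the 7 members.

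**Figure D1:**
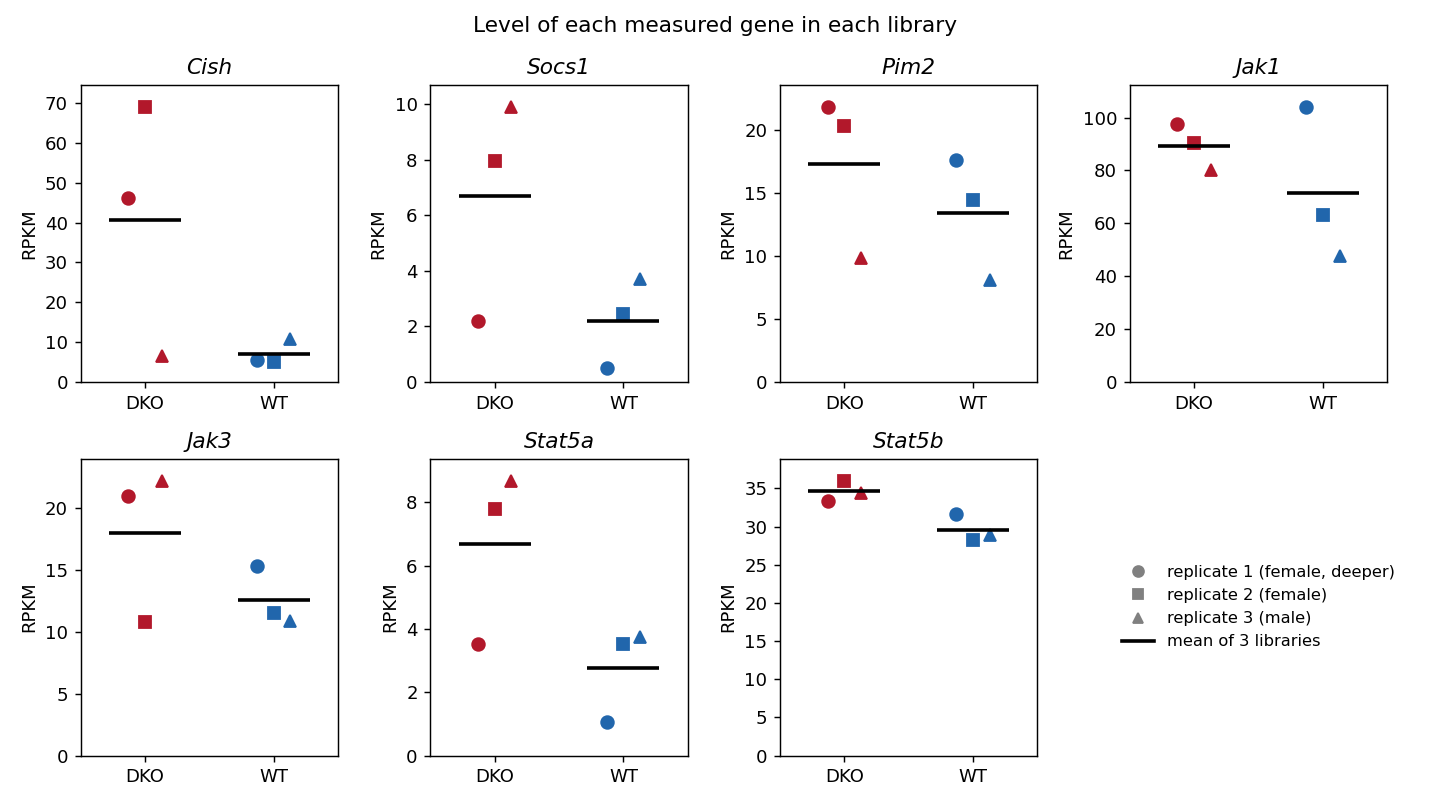
RPKM of the 7 measured members in each library, with DKO left and WT right in every panel, symbols for the replicates and a black bar for the mean of 3 libraries. Cish stood at 46.2 and 69.0 in the female DKO libraries and between 4.92 and 10.7 in the other 4, while Stat5b spanned only 33.4 to 36.0 in DKO and 28.2 to 31.7 in WT.

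Cish, the SOCS-family inhibitor that STAT5 induces and that binds activated cytokine receptors, was at RPKM 46.2, 69.0 and 6.60 in DKO replicates 1 to 3, against 5.45, 4.92 and 10.7 in WT replicates 1 to 3. It was high in both female DKO libraries and low in the male DKO library, which lay inside the range of the WT libraries, so the groups overlapped. These values rested on 3436, 1055 and 92 reads in the DKO libraries and 381, 77 and 116 reads in the WT libraries. The means were 40.6 ± 31.6 in DKO and 7.01 ± 3.17 in WT (SD, n = 3 each), and the log2 change was 1.94 ± 0.73 (SE), on the log2(RPKM + 1) scale used for all changes here. In male libraries the DKO level was 0.619 times the WT level, and in female libraries the mean was 57.6 in DKO and 5.18 in WT, a ratio of 11.1. Within the deeper pair of libraries the DKO level was 8.48 times the WT level and within replicate 2 it was 14.0 times. With 1 male library a genotype, sex and library cannot be told apart here. In bulk RNA, more cells that use a gene and more RNA per cell cannot be told apart either.

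The genotype difference in males minus that in females was -3.83 ± 0.83 log2 units (SE) for Cish. It is given as a description. Over all 10694 genes 0 passed limma's test of the interaction at an adjusted p of 0.05 (0%), with 293 at an unadjusted p of 0.05, and a weighted fit on the recovered reads (limma's voom) passed 0 with 190 unadjusted.

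Socs1, which blocks the catalytic activity of JAKs and restrains gamma chain and interferon signals, was at RPKM 2.20, 7.96 and 9.91 in the DKO libraries, against 0.488, 2.43 and 3.71 in the WT libraries. The DKO level was above the WT level of the same replicate number in 3 of 3 comparisons, while DKO replicate 1 lay inside the WT range. The means were 6.69 ± 4.01 in DKO and 2.21 ± 1.62 in WT (SD, n = 3 each), with a log2 change of 1.23 ± 0.66 (SE). Replicate 1 was the lowest library of each genotype for Socs1, and these are the libraries with the high thymocyte marker sums. In the 4 other libraries the log2 change was 1.30. A row in the table required RPKM above 3 in at least 2 libraries, which Socs1 would not have met without its DKO libraries. The reads behind the values were 211, 157 and 178 in DKO and 44, 49 and 52 in WT.

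The ratio of Cish to Socs1 differed widely between libraries. It was 21.0, 8.66 and 0.666 in DKO replicates 1 to 3, against 11.2, 2.03 and 2.87 in WT replicates 1 to 3. The male DKO library was the only one of the 6 in which Socs1 exceeded Cish.

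**Figure D2:**
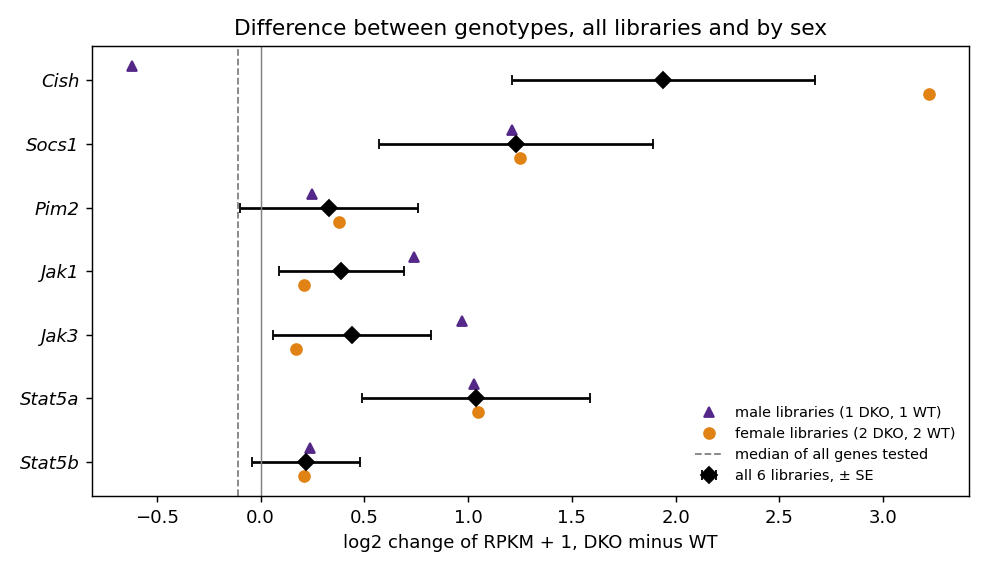
Log2 change of RPKM + 1, DKO minus WT, for each member over all 6 libraries (black, with SE), over the 2 male libraries (purple) and over the 4 female libraries (orange), beside the median of all genes tested. For Cish the male value was -0.62 and the female value 3.22, whereas for Socs1, Stat5a and Stat5b the values of the sexes lay within 0.1 of each other.

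Pim2, a survival kinase that phosphorylates the cell death protein BAD and regulators of translation, was at RPKM 21.8, 20.3 and 9.82 in the DKO libraries, against 17.6, 14.4 and 8.09 in the WT libraries. The male library was the lowest of each genotype, and the groups overlapped. The log2 change between genotypes was 0.33 ± 0.43 (SE). Between the sexes Pim2 averaged 8.95 in the 2 male libraries and 18.5 in the 4 female libraries. Its log2 difference was -0.96 ± 0.37 (SE), male minus female with genotype in the model. Both male libraries lay below all 4 female libraries for 1 of the 7 members, Pim2, and for 5.39% of all genes tested. RefSeq places Pim2 on chromosome X.

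For the other members the male and female libraries overlapped. Over all genes limma passed 0.00935% between the sexes (1 of 10694, Klk1b22, named after its value was seen), with 376 at an unadjusted p under 0.05, and voom passed 0, with 265 unadjusted. Each library's level of the members was in view when they were chosen, so nothing is read from where they fall in the sex contrast. The log2 difference, male minus female, was -1.0 ± 0.74 for Cish, 1.04 ± 0.65 for Socs1, 0.63 ± 0.58 for Stat5a and -0.03 ± 0.30 for Stat5b (SE).

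Jak1, the kinase shared by gamma chain, interferon and gp130 receptors, was at RPKM 97.6, 90.4 and 80.3 in the DKO libraries, against 104.0, 63.0 and 47.5 in the WT libraries. WT replicate 1 was the highest of all 6, and the other 2 WT libraries lay below all 3 DKO libraries. The log2 change was 0.39 ± 0.30 (SE), and 0.69 without WT replicate 1. Jak3, the kinase that binds only the common gamma chain, was at 21.0, 10.8 and 22.2 in the DKO libraries, against 15.3, 11.5 and 10.9 in the WT libraries. DKO replicate 2 was the lowest of all 6 for Jak3, and the other 2 DKO libraries lay above all 3 WT libraries. The log2 change was 0.44 ± 0.38 (SE), and 0.75 without DKO replicate 2. Per gene length Jak1 exceeded Jak3 by 4.65, 8.38 and 3.61 times in the DKO libraries and by 6.79, 5.47 and 4.37 times in the WT libraries.

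Stat5b, the more abundant of the paired STAT5 genes, was at RPKM 33.4, 36.0 and 34.4 in the DKO libraries, against 31.7, 28.2 and 28.9 in the WT libraries. All 3 DKO libraries lay above all 3 WT libraries, by a log2 change of 0.22 ± 0.26 (SE). Stat5a was at 3.53, 7.80 and 8.68 in the DKO libraries, against 1.06, 3.52 and 3.74 in the WT libraries, and DKO replicate 1 lay inside the WT range. The means were 6.67 ± 2.76 in DKO and 2.77 ± 1.49 in WT (SD, n = 3 each), with a log2 change of 1.04 ± 0.55 (SE), and 1.00 in the 4 libraries other than replicate 1. Like Socs1, Stat5a was lowest in replicate 1 of each genotype. Stat5a made up 9.57%, 17.8% and 20.2% of the summed Stat5a and Stat5b RPKM in the DKO libraries, against 3.24%, 11.1% and 11.5% in the WT libraries. STAT5A and STAT5B are close paralogs. Of distinct 35-base stretches in GENCODE M21 transcripts, 10.7% of those of Stat5a and 14.2% of those of Stat5b also occur in the other gene. The authors' counting could therefore have split some reads between them, and these shares do not bound the error. In WT replicate 1 the recovered reads were 5677 for Stat5b and 135 for Stat5a, so misplaced Stat5b reads would weigh most on Stat5a. How far this reaches into the levels, change and share of Stat5a was not tested. The read length is not stated in the labels.

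Across the 7 members the log2 change lay above 0 in 7, with a median of 0.44, beside a median of -0.11 over all 10694 genes tested and 42.9% of genes above 0. With quantile normalization the median of all genes was 0.01, and the 7 members still lay above 0. At an adjusted p of 0.05 limma passed 0 of the 7, beside 0.0842% of all genes (9 of 10694). At an unadjusted p under 0.05 limma had 1 of the 7, Cish, beside 1179 of the 10694 genes. On the recovered reads voom passed 0 genes. It had 2 of the 7 at an unadjusted p under 0.05, beside 1661 of the 10694. The groups did not overlap for 1 of the 7, Stat5b. All 3 DKO libraries lay above all 3 WT libraries for 5.71% of all genes and below them for 11.4%, a split of 611 and 1224 genes that became 921 and 936 with quantile normalization and 903 and 947 with median scaling. Because both genotypes were in view when the members were chosen, nothing is read from these counts.

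Around the members, receptor genes lay on both sides of no change and none passed the test. The pathway's other genes were taken from lists that hold no member, 110 genes in all, of which 70 could be tested. Of these 70, limma passed 0 at an adjusted p of 0.05 over all genes, and voom on the recovered reads passed 0. At an unadjusted p of 0.05 limma had 8 of the 70, beside 1179 of all 10694 genes. Voom had 17 of the 70, beside 1661 of all 10694. Nothing is read from these unadjusted counts. In 7 of the 70 all DKO libraries lay above all WT libraries (10.0%) and in 8 they lay below (11.4%), and with quantile normalization these counts were 9 and 6. The median log2 change over the 70 was -0.07. A row in the table required RPKM above 3 in at least 2 libraries. Among the listed genes named in the text, Lif and Cdc25a met this through WT libraries alone. Tbx21 would not have met it without WT libraries, and Il4ra, Il6st and Il15ra would not have met it without DKO libraries. The differences of these genes between genotypes are therefore partly set by that filter.

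**Figure D3:**
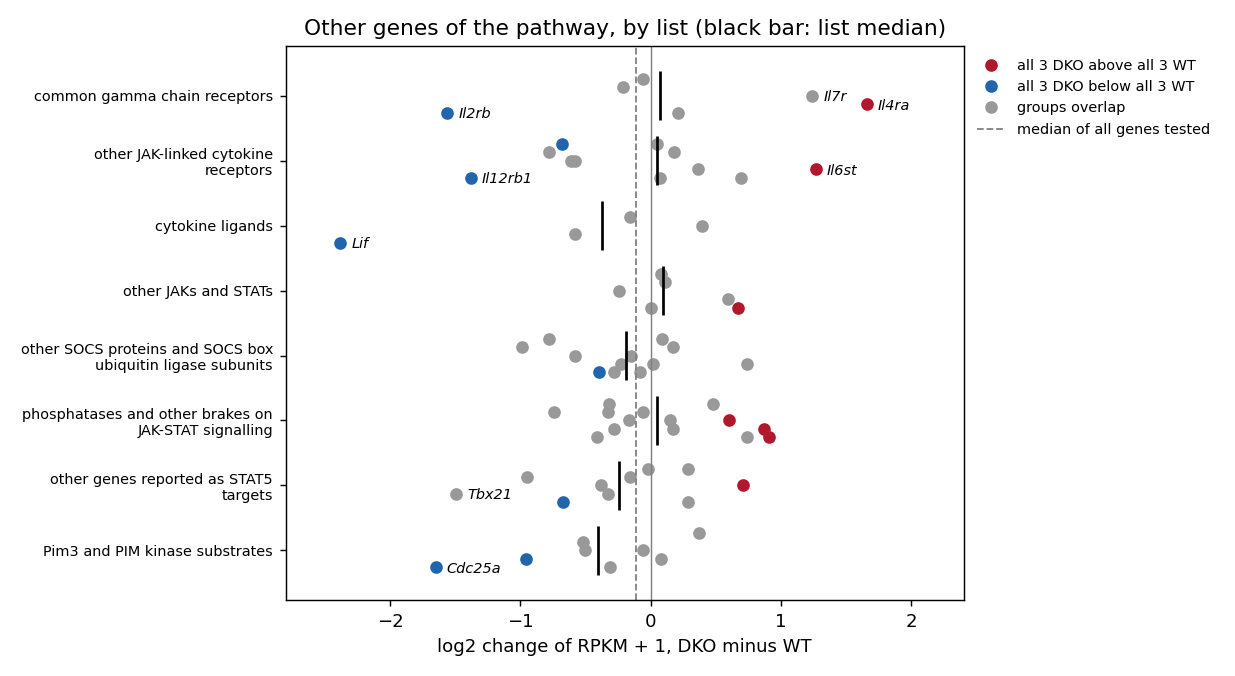
Log2 change of RPKM + 1, DKO minus WT, for the tested genes of 8 pathway lists, with a black bar for each list's median, red and blue points for genes whose groups did not overlap and grey points for the others. Il4ra, Il6st and Il7r lay at 1.24 to 1.66 and Lif, Cdc25a, Il2rb, Tbx21 and Il12rb1 at -2.38 to -1.38. The list medians lay between -0.40 and 0.10.

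Of 8 common gamma chain receptor genes 6 were tested, 3 above and 3 below 0, and 0 passed. Il2rb, the beta chain shared by the IL-2 and IL-15 receptors, was at RPKM 2.89, 7.5 and 10.7 in the DKO libraries, against 15.8, 23.6 and 22.9 in the WT libraries, so every DKO library lay below every WT library (log2 change -1.56 ± 0.46 SE, limma adjusted p = 0.257). Il4ra, the IL-4 receptor alpha chain, was at 9.61, 5.93 and 7.18 in the DKO libraries, against 3.34, 0.648 and 1.67 in the WT libraries, with every DKO library above every WT library (log2 change 1.66 ± 0.53, limma adjusted p = 0.277). Il7r, the IL-7 receptor alpha chain, was at 345, 219 and 135 in the DKO libraries, against 168, 85.6 and 52.6 in the WT libraries, and the groups overlapped (log2 change 1.24 ± 0.44, limma adjusted p = 0.321). Each DKO library lay above the WT library of the same replicate number for Il7r. Il2rg, the common gamma chain itself, was at 380, 387 and 469 in the DKO libraries, against 437, 397 and 453 in the WT libraries, and overlapped.

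Of 23 other JAK-linked receptor genes 11 were tested and 0 passed. Il12rb1, a chain of the IL-12 and IL-23 receptors, was at RPKM 6.59 ± 3.91 in DKO and 16.5 ± 1.5 in WT (SD, n = 3 each), with every DKO library below every WT library. Il6st, which encodes gp130, was at 7.08, 4.43 and 9.26 in the DKO libraries, against 3.38, 1.74 and 1.69 in the WT libraries, again without overlap but in the other direction. Ifnar2, a type I interferon receptor chain, was at 13.5 ± 3.46 in DKO and 21.3 ± 7.11 in WT and overlapped. Of 14 ligand genes 4 were tested and 0 passed. Lif, a ligand of gp130 receptors, was at 0.0216, 0 and 0.0384 in the DKO libraries, against 5.41, 3.76 and 3.88 in the WT libraries. That is 3, 0 and 1 reads in the DKO libraries, against 708, 110 and 79 reads in the WT libraries. Lif had the smallest adjusted p of the 70 genes (limma, 0.173). It has a row through the WT libraries alone, so nothing is read from that rank. Il4 and Il13, cytokines that NKT cells make, were at 30.8 ± 23.5 and 9.36 ± 1.41 in DKO and at 40.0 ± 12.0 and 8.79 ± 6.74 in WT, and overlapped.

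Of 7 other JAK and STAT genes 6 were tested and 0 passed. Stat2, a factor of type I interferon signalling, was at RPKM 16.7, 25.6 and 18.1 in the DKO libraries, against 14.2, 11.8 and 10.6 in the WT libraries, without overlap (log2 change 0.67 ± 0.34 SE). Tyk2, the JAK of interferon and IL-12 receptors, was at 6.81, 7.91 and 5.48 in the DKO libraries, against 1.72, 4.62 and 7.67 in the WT libraries. Stat3, the main factor of gp130 signals, was at 19.5 ± 4.65 in DKO and 23.0 ± 4.06 in WT (SD, n = 3 each). Of 12 tested genes among the other SOCS proteins and the ubiquitin ligase that SOCS proteins recruit, 4 lay above 0 and 8 below, and 0 passed. Rnf7, a RING subunit of that ligase, was at 44.2 ± 3.63 in DKO and 58.8 ± 6.56 in WT, without overlap. Wsb1, a SOCS-box protein, was at 29.7 ± 9.84 in DKO and 18.5 ± 10.4 in WT, and Eloc, the adaptor elongin C, at 25.1 ± 2.47 in DKO and 40.4 ± 17.0 in WT, both with overlap.

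Of 15 phosphatases and other brakes 14 were tested, 7 above and 7 below 0, and 0 passed. Ptprc, which encodes the phosphatase CD45, was at RPKM 217, 141 and 184 in the DKO libraries, against 121, 90.0 and 77.5 in the WT libraries, without overlap (log2 change 0.91 ± 0.26 SE, limma adjusted p = 0.230). Cblb, a ubiquitin ligase that restrains T cell activation, was at 8.84 ± 1.81 in DKO and 4.37 ± 0.910 in WT (SD, n = 3 each), without overlap, and Pias2, a SUMO ligase of the PIAS family, was at 16.6 ± 4.57 in DKO and 10.4 ± 1.12 in WT.

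Of 18 other genes reported as STAT5 targets 10 were tested, 3 above and 7 below 0, with a median log2 change of -0.25, and 0 passed. Bcl2, the survival gene, was at RPKM 7.94, 9.0 and 8.93 in the DKO libraries, against 5.26, 5.03 and 4.39 in the WT libraries, with every DKO library above every WT library. Myc, the growth regulator, was at 41.1, 21.3 and 31.7 in the DKO libraries, against 53.8, 47.0 and 45.5 in the WT libraries, with every DKO library below every WT library. Tbx21, which encodes T-bet, was at 0.137, 0.277 and 4.99 in the DKO libraries, against 2.17, 6.94 and 6.70 in the WT libraries, and overlapped. Of 12 genes listed as Pim3 and PIM kinase substrates 8 were tested, with a median of -0.40, and 0 passed. Cdc25a, the phosphatase that activates cyclin-dependent kinases, was at 1.99 ± 0.27 in DKO and 8.48 ± 1.92 in WT, and Pim3, the third PIM kinase, at 5.05, 0.663 and 5.46 in the DKO libraries, against 5.92, 6.03 and 8.85 in the WT libraries, both without overlap. Nfatc1, a transcription factor of T cell receptor signals, was at 16.6 ± 7.36 in DKO and 24.4 ± 13.3 in WT and overlapped.

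Genes whose levels ran most closely with a feedback gene were found by the root mean square difference over the 6 libraries, on log2(RPKM + 1) after subtracting each gene's mean. Nearest to Cish were Hey1, a transcriptional repressor known as a Notch target, at 0.34 log2 units, Gpr183, an oxysterol receptor that guides lymphocyte migration, at 0.48, and Etfbkmt, a lysine methyltransferase, at 0.54. Hey1 was at RPKM 8.36, 18.5 and 0.563 in the DKO libraries, against 0.0280, 0.941 and 1.98 in the WT libraries. It was high in the same female DKO libraries as Cish. Hey1 met the filter for a row, RPKM above 3 in at least 2 libraries, through those libraries alone. Etfbkmt would not have met that filter without them, so the likeness of both genes to Cish is partly set by it. Gpr183 was at 63.0, 97.8 and 14.3 in the DKO libraries, against 18.1, 8.28 and 10.9 in the WT libraries. Nearest to Socs1 were H2-Ob at 0.21, Commd9 at 0.22 and Snx10 at 0.25 log2 units, each lowest in replicate 1 of both genotypes. Nearest to Pim2 were a gene listed as ENSMUSG00000078563 and Ifi204, each at 0.10, and Eif2s3x at 0.13 log2 units. RefSeq places Ifi204 on chromosome 1. It was at 9.84, 10.5 and 4.73 in the DKO libraries, against 7.22, 6.5 and 3.7 in the WT libraries. Eif2s3x, an X-linked translation factor gene known to escape X inactivation in mice, was at 26.6, 28.6 and 15.9 in the DKO libraries, against 23.0, 17.8 and 10.7 in the WT libraries. With 6 libraries many genes resemble any given profile, and these neighbours are given as a description.

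**Figure D4:**
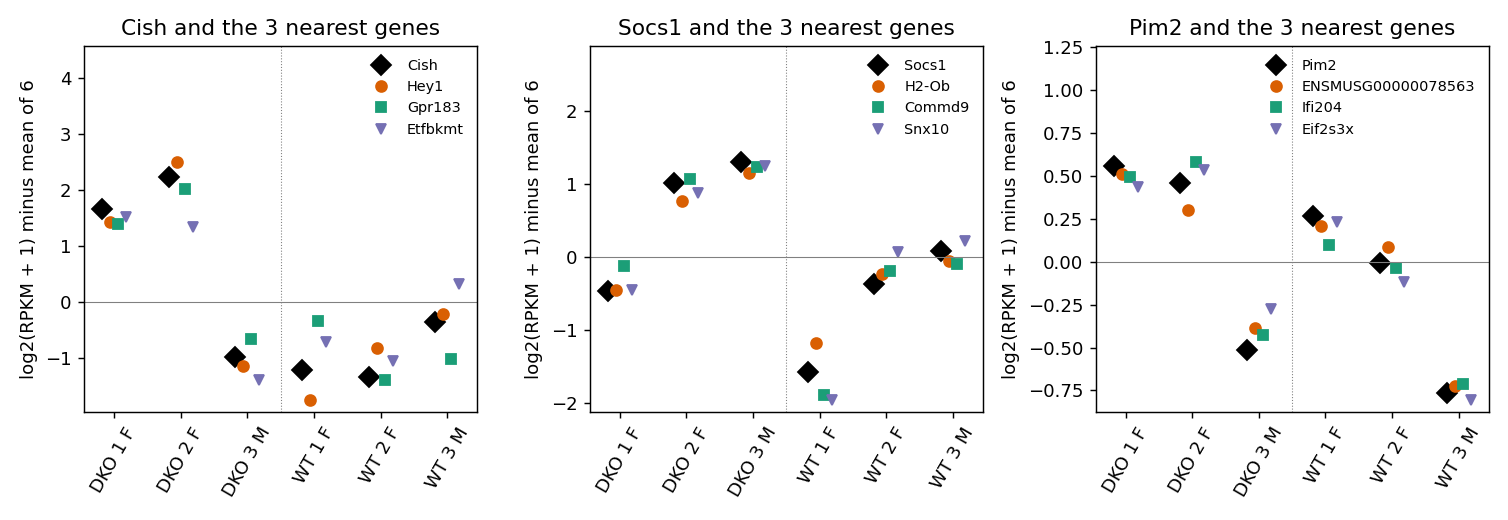
Log2(RPKM + 1) of Cish, Socs1 and Pim2 (black diamonds) and of the 3 genes nearest to each, after subtracting each gene's mean over the 6 libraries, with DKO libraries left of the dotted line and F and M for female and male. The Cish panel is high in DKO replicates 1 and 2 only, the Socs1 panel is lowest in WT replicate 1, and the Pim2 panel is lowest in the male library of each genotype.

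Markers of other cells are given beside these results because some moved with genotype or with a library. Of 5 listed genes of gamma-delta T cells 4 had a row, all but Trdc, the delta chain gene. They summed to RPKM 151 to 191 in the DKO libraries and 788 to 907 in the WT libraries. Most of that sum came from the gamma chain segments Tcrg-C1, Tcrg-C2 and Tcrg-C4, so it does not show how many gamma-delta T cells were present. Of 5 listed NK cell genes 2 had a row, Gzma and Klrb1c, the latter given above with the sort gate. They summed to 0.552 to 7.13 in the DKO libraries and 7.48 to 15.2 in the WT libraries. Neither gene would have a row without the WT libraries, so this gap is partly set by the row filter. Gzma alone overlapped, at 6.34, 0 and 0.165 in the DKO libraries, against 4.44, 3.97 and 4.65 in the WT libraries. Dntt, a gene of immature thymocytes, was at 65.8, 1.73 and 0 in the DKO libraries, against 84.2, 0.195 and 0.373 in the WT libraries, and Cd8a at 148, 2.77 and 0 in the DKO libraries, against 174, 5.71 and 5.18 in the WT libraries. Of 7 myeloid and dendritic cell genes 2 had a row, summing to 3.74 to 13.7 in the DKO libraries and 4.43 to 18.5 in the WT libraries, and of 6 B cell genes 0 had a row. Of 7 epithelial and stromal genes only Pecam1 was listed, at 3.05 to 28.4 in the DKO libraries and 9.82 to 33.9 in the WT libraries, and of 5 erythroid genes only Hba-a2, at 0 to 21.1 in the DKO libraries and 0 to 1.06 in the WT libraries. The part of these other cells in the members' values was not tested.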

How the data were processed

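Polyadenylated RNA was amplified by a published method for few cells and sequenced on an indexed Illumina kit, per the labels' protocols. The submitters' processing notes name Bowtie and the mm9 build. The sources used here do not state versions, settings, annotation or how reads were counted. The table the authors deposited holds RPKM for 10772 rows in 6 libraries and a gene length, and each row was above RPKM 3 in at least 2 libraries. Of these rows 9918 matched GENCODE M21 names. Keeping the highest row per symbol left 10755 genes, and 10694 of them reached RPKM 1 in 3 or more libraries and entered the tests. RPKM multiplied by length gave whole reads, within 0.05, for 99.6% to 100.0% of values per library. Such reads are not independent molecules after amplification.

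Linear models over all these genes used log2(RPKM + 1) values and limma 3.58.1 under R 4.3.3 (empirical Bayes with a trend, two-sided, Benjamini-Hochberg adjustment, threshold 0.05), with genotype alone, with genotype and sex, and with their interaction. A log2(RPKM + 1) change understates that of low genes. Python 3.11.15, numpy 2.4.6, pandas 2.3.3 and matplotlib 3.10.9 were used for the rest, and the fit was tested on simulated data. The alternatives were other pseudocounts and filters, quantile and median scaling, voom on the recovered reads, the replicate number as a block, sex as a covariate, the 4 shallower libraries and leaving out each library. Promoter sequences are RefSeq's on GRCm38.p6, another build than the authors' mm9. Members, lists and tests were chosen with earlier results of these data known. Genes named are the members, the deleted genes, the 3 with the smallest p on each pathway list and the 3 nearest to each feedback gene. Il2rg, Klk1b22 and the single markers were named after their values were seen.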

Additional observations from a re-analysis of the deposited data

Results flagged for a closer look

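The difference between genotypes ran in opposite directions in the sexes for 2 of the 31 genes named as members or from the pathway lists. For Cish, the male DKO library (RPKM 6.60) lay below the male WT library (10.7), while both female DKO libraries (46.2 and 69.0) lay above both female WT libraries (5.45 and 4.92). The log2 change was -0.62 in males and 3.22 in females, a difference of -3.83 ± 0.83 (SE), which was not tested because Cish was chosen with each library's level in view. For Tyk2, the male DKO library (5.48) lay below the male WT library (7.67) and the female DKO libraries (6.81 and 7.91) above the female WT libraries (1.72 and 4.62). The log2 change was -0.42 in males and 1.09 in females, a difference of -1.51 ± 1.1 (SE, limma interaction, adjusted p = 0.9997). Such opposed values were found for 13.2% of all genes tested (1410 of 10694).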

How the results depend on the processing

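For the 7 members the log2 change between genotypes stayed above 0 under every alternative run, and 0 passed in any. There were 15 runs for Socs1 and Stat5a, which a stricter filter removed, and 16 for the others. The filters, the replicate block and the sex covariate cannot change a member's log2 change, so those runs say nothing on its sign. For Cish the change ranged from 1.31 (without DKO replicate 2) to 2.91 (without DKO replicate 3, the DKO library low in Cish). The range was 0.76 to 1.78 for Socs1, 0.03 (without WT replicate 3) to 0.68 for Pim2 and 0.14 to 0.69 for Jak1. It was 0.26 to 0.75 for Jak3, 0.65 to 1.52 for Stat5a and 0.19 to 0.32 for Stat5b. The number of genes passing between genotypes was 9, and it was 1 in the 4 shallower libraries, 0 with voom on the recovered reads and 0 to 13 when a library was left out, namely 2 without WT replicate 1 and 0 without WT replicate 2 or WT replicate 3. The 9 calls were 1 higher and 8 lower, which became 3 higher and 7 lower with quantile normalization. Between the sexes 1 gene passed, with 2 when no filter was used, 0 with voom and 0 to 1 when a library was left out (0 without any single library other than DKO replicate 2). The pathway lists and the interaction gave 0 under every alternative run. The cause of these shifts was not tested. With the replicate number as a block, 9 genes passed. Deviations of same-numbered libraries correlated across genes at 0.226, 0.146 and 0.0752, each the highest for its library. The main fit did not pair the libraries. Same-numbered libraries also share sex, and those of replicate 1 share depth and high thymocyte marker sums. The fewest reads behind a member's value were 44 (Socs1, WT replicate 1), and whether depth limits the differences between low members was not tested.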

Other observations

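Some genes of the pathway lists had their highest or lowest level in replicate 1 of both genotypes, and these were chosen after their values were seen. Ccnd2, the cyclin D2 gene, was at RPKM 50.6, 12.6 and 11.9 in the DKO libraries, against 49.6, 25.0 and 14.1 in the WT libraries, highest in replicate 1 of both genotypes. Bcl2l1, which encodes the survival protein BCL-XL, was at 11.1, 4.75 and 2.17 in the DKO libraries, against 9.52, 3.05 and 4.38 in the WT libraries, again highest in replicate 1. Il15ra, the IL-15 receptor alpha chain, was lowest in replicate 1, at 0.105, 6.39 and 7.58 in the DKO libraries, against 0.895, 9.25 and 1.32 in the WT libraries.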
